A study of Mus musculus with 9 samples.

Results

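The RAS to ERK kinase cascade was described through 7 genes, found by symbol among the 27179 genes of the count table. They are the RAS family GTPase genes Hras, Nras and Rras, the RAF kinase gene Braf, the MEK genes Map2k1 and Map2k2, and the ERK gene Mapk3. All 7 passed the filter on low counts, which left 17344 genes for testing. The 7 genes were chosen with results from these samples known, so their levels, differences and calls are given as a description and carry no test.

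RNA was sequenced in bulk from punches of the hypothalamic paraventricular nucleus (PVN) of wild type male mice, 3 per group, given as C57BL/6 in the labels and as C57BL/6J in the methods of the study. The Control diet was chow, with fat providing 16% of calories. HFD mice spent 12 weeks on a diet in which fat provided 60% of calories. HFD+Mino mice had this same diet and, over its last 6 weeks, drinking water with minocycline (40 mg/kg/day), a tetracycline antibiotic used to dampen microglial activation. The sample labels give an age of 35 days for all 3 groups, which is the age of 5 weeks that the methods of the study give for the start of the diet. No group analysed here received minocycline on chow, so an effect of the drug could be seen only on the high fat diet. The comparison of HFD with Control asked what the diet changed in the PVN, and that of HFD+Mino with HFD asked what minocycline changed in mice on this diet.

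RAS proteins are small GTPases at the inner face of the cell membrane that receptors switch on by exchange of GDP for GTP. Active RAS recruits RAF kinases, which phosphorylate the MEK kinases, which in turn phosphorylate the ERK kinases, and ERK acts on proteins in the cytoplasm and on transcription factors in the nucleus. In hypothalamic neurons the pathway lies downstream of receptors for growth factors and metabolic hormones, insulin among them. The activity of the cascade is set by GTP loading and phosphorylation, and RNA levels report neither.

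Levels are given as CPM, read counts scaled to a common library size by TMM. Levels of different genes were compared as CPM per kb of exon, apart from a ratio of Braf to Araf counts. Exon length was taken over all annotated exons of a gene merged, which can exceed the length of any 1 transcript. Differences are log2 fold changes with the standard error (SE) of the edgeR quasi-likelihood fit to all 9 samples. A gene was called at a Benjamini-Hochberg FDR under 0.01 over all genes tested and a change of at least 1.5-fold. The study names this FDR and this fold for another quantity, expression relative to the mean over all conditions. HFD+Mino and Control were each compared with the same 3 HFD samples, so the 2 comparisons share those samples and are not independent.

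Total counts ran from 17728590 to 42326213 per sample. PVN marker genes were very uneven, between groups as well as within them. The summed CPM of 5 PVN markers was 27.8 to 2560 in Control, 2478 to 3725 in HFD and 3104 to 37725 in HFD+Mino. Mean Avp was 383, 1354 and 17149 CPM in these groups, and mean Oxt was 540, 1392 and 6320 CPM. In Control replicate 1, Avp was at 0.149 CPM, Oxt at 0.770 and Sim1 at 0.770, against Avp levels of 157 CPM and more in the other 8 samples. Oligodendrocyte markers summed to 29217 CPM in that library, the highest of all, and to between 2221 and 6887 CPM in the HFD and HFD+Mino samples. Most values that rest on the Control samples are therefore followed by the value without this library or given per sample. Among the exceptions are the log2 fold changes of cell type markers, the fits with a trend removed and those with the replicate block. The summed CPM of 6 microglial markers was 146 to 181 in Control, 211 to 234 in HFD and 135 to 191 in HFD+Mino, and that of 6 astrocyte markers was 1713 to 2182, 2249 to 2427 and 1677 to 1917. No microglial or astrocyte marker was called in either comparison with HFD, and single markers went both ways. In HFD against Control, 5 of 6 microglial markers had positive log2 fold changes (-0.49 to 0.73), and so had 4 of 6 astrocyte markers (-1.05 to 0.70). In HFD+Mino against HFD, 1 of 6 microglial markers (-1.46 to 1.36) and 2 of 6 astrocyte markers (-1.28 to 1.15) had positive values. Of the other cell type markers, 3 were called, and they are named for that reason. The oligodendrocyte precursor markers Cspg4 and Olig2 were higher and lower in HFD against Control (1.62 ± 0.252 and -3.30 ± 0.494 on the log2 scale). Cspg4 and the mural cell marker Pdgfrb were lower in HFD+Mino against HFD (-1.71 ± 0.253 and -1.57 ± 0.311). Both marker lists were mixed in sign there. Positive values were found for 1 of 4 oligodendrocyte precursor markers (-1.71 to 2.20) and 2 of 6 endothelial and mural markers (-1.57 to 1.56). The summed CPM of 4 ependymal markers was 14.8 to 129 in Control, 138 to 247 in HFD and 284 to 618 in HFD+Mino, so that the 3 groups did not overlap. The ribosomal RNA precursor Rn45s was at 239 to 461 CPM in Control, 3477 to 3829 in HFD and 426 to 1346 in HFD+Mino. The microglial sum, the astrocyte sum and Rn45s therefore separated the HFD samples from the other 6, as several cascade genes did, and the part of these and the other markers in the results was not tested. In bulk tissue, fewer cells of a type and less RNA per cell cannot be told apart.

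Hras and Nras are close in sequence, which bears on how far reads of one can be told from reads of the other. Both open reading frames in the GENCODE M21 transcripts have 567 positions, of which 140 differ, so that 75.3% are identical. The GC content of the whole coding sequence was 53.8% in Hras and 48.9% in Nras. The longest identical stretch between the transcripts of these genes was 23 nt, shorter than the 50 nt reads. Hras shared no stretch of read length with any other gene, whereas 0.860% of such stretches in Nras occurred in other genes as well.

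Promoter sequences, defined as the 250 bases before a listed start site in the RefSeq annotation of GRCm38.p6, were matched for 6 of the 7 genes, without Mapk3. Those of Hras, Rras and Braf are printed because these genes carried the calls, with the GC box GGGCGG in capitals on either strand (CCGCCC where it lies on the other strand).
Hras, chr7:141194005-141194254, minus strand: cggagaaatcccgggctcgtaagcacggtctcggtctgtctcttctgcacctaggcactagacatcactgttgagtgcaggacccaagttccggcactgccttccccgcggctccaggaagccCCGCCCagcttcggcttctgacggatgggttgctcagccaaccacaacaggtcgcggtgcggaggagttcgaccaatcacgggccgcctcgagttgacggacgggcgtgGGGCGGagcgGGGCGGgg
Rras, chr7:45017692-45017941, plus strand: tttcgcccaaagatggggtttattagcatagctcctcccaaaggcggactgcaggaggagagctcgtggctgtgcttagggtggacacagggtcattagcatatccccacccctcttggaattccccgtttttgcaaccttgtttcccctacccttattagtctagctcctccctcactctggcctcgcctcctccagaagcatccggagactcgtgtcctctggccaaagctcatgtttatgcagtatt
Braf, chr6:39725464-39725713, minus strand: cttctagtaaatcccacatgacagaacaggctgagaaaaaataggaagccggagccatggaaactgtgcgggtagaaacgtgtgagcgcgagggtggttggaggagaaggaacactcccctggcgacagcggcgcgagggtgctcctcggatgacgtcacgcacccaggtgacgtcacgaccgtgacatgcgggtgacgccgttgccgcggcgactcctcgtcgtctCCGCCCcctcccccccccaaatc
The Hras window held 3 GC boxes, 24 CpG dinucleotides and 65.6% G and C. The printed Rras window, of the first of 3 starts listed for this gene, held 0 GC boxes, 7 CpG and 53.2% G and C. The windows of its other starts held 0 GC boxes each, 1 and 3 CpG, and 1 and 2 copies of CCAAT. The Braf window held 1 GC box, 24 CpG and 62.0% G and C, together with 2 copies of the cAMP response element TGACGTCA. The listed starts of Hras and Braf lie inside the gene spans given below. Most of the Braf window, with its GC box and both response elements, therefore falls within the span of Braf. The last bases of the Hras window likewise fall within the span of Hras. Over all 32851 promoter windows the medians were 6 CpG and 52.4% G and C, a GC box was found in 32.7% and the response element in 1.55%. Map2k1 and Map2k2 had 4 and 1 GC boxes and Nras had 2. The motifs CCGGAAG (ETS), CCAAT and TGANTCA (AP-1), found in 6.91%, 33.8% and 6.75% of windows, were searched too, and of the 3 printed windows that of Hras held 1 CCAAT and the others none. All motifs were searched on both strands with overlapping matches counted, they are matches of letters, and they were not tested against expression.

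In Control PVN the 7 genes spanned a wide range of levels per length. Map2k1 was the highest at 97.3 ± 6.89 CPM per kb (SD, n = 3). Hras followed at 56.3 ± 5.05 and Mapk3 at 54.1 ± 5.83, and the Control samples of these 2 genes overlapped. Rras at 19.3 ± 5.87 and Map2k2 at 15.3 ± 1.36 CPM per kb overlapped as well. The order and overlap of these 2 genes depend on the length used. Map2k2 has 5663 nt of merged exons and a longest coding transcript of 2405 nt, against 1121 and 995 nt for Rras. Nras at 6.51 ± 1.62 and Braf at 3.73 ± 0.363 CPM per kb were the lowest, and did not overlap with each other. The means without Control replicate 1 were 97.9 for Map2k1, 54.6 for Hras, 50.8 for Mapk3, 16.4 for Rras, 14.6 for Map2k2, 5.67 for Nras and 3.84 CPM per kb for Braf, in the same order. Hras was therefore the leading RAS gene of the list in Control. In HFD its level per length was 7.11 ± 0.520 CPM per kb, below that of Nras at 9.69 ± 1.55 and of Rras at 8.85 ± 1.08.

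**Figure D1:**
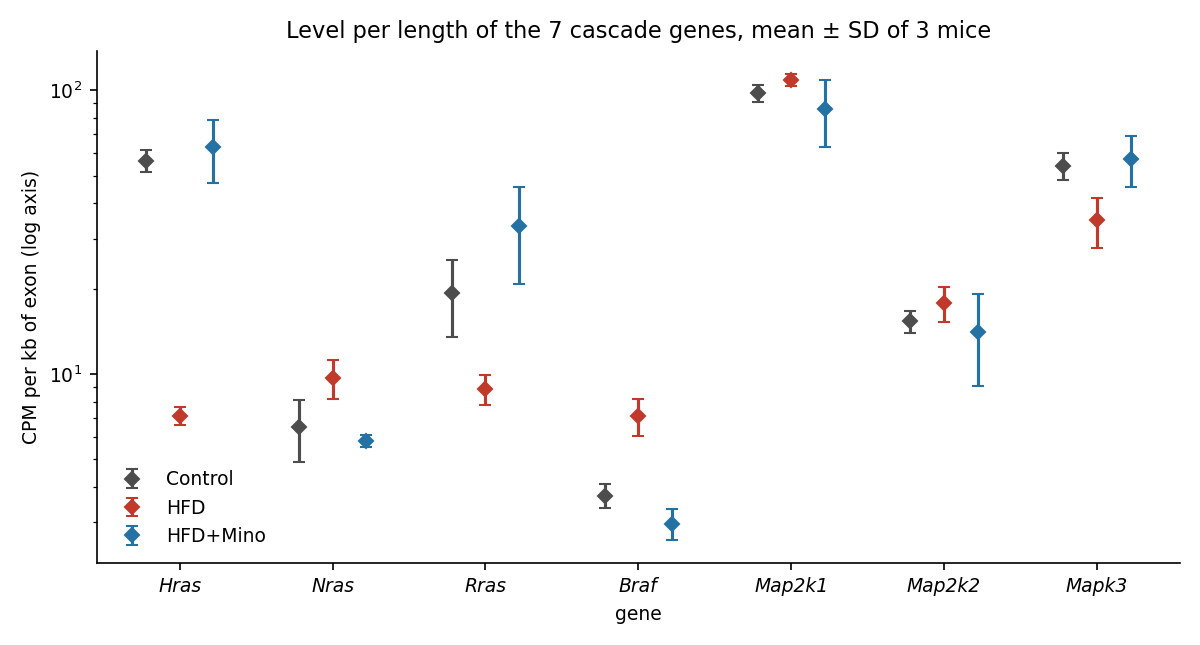
Level of each cascade gene per kb of exon (log axis) in Control, HFD and HFD+Mino, as the mean of 3 mice with the SD. Map2k1 was highest in all 3 groups, and the HFD level of Hras, 7.11 CPM per kb, lies well below its levels of 56.3 in Control and 62.9 in HFD+Mino.

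Hras (Entrez gene 15461, GRCm38 chr7:141189934-141194019, minus strand) encodes a RAS GTPase that is abundant in brain. It was at 223, 219 and 189 CPM in Control, at 24.7, 28.6 and 26.4 CPM in HFD, and at 301, 186 and 218 CPM in HFD+Mino. The 3 HFD samples lay far below the other 6, while Control and HFD+Mino overlapped. Counts were high in every sample, from 492 to 8986 reads, so that the low HFD level did not rest on a handful of reads. The log2 fold change was -2.99 ± 0.237 (SE) in HFD against Control, a 7.92-fold lower level, and 3.14 ± 0.239 in HFD+Mino against HFD, an 8.85-fold higher level, and both were called. Without Control replicate 1 the difference from Control was -2.94. Hras kept its call in both comparisons under every setting tried and with each sample left out, with log2 fold changes from -3.06 to -2.32 and from 2.80 to 3.29.

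Nras (Entrez gene 18176, chr3:103058285-103067914) encodes another classical RAS protein, and its log2 fold changes had the opposite sign to those of Hras. It was at 43.6, 34.0 and 26.4 CPM in Control, 42.2, 55.3 and 57.5 CPM in HFD, and 30.0, 32.6 and 30.1 CPM in HFD+Mino. HFD overlapped with Control and lay above all HFD+Mino samples, a separation shown by 23.5% of all genes in that direction. The log2 fold changes were 0.57 ± 0.235 and -0.74 ± 0.236, and neither was called. Without Control replicate 1 the first was 0.77. The ratio of Hras to Nras, both per kb of exon, was 7.30 to 10.2 in the Control samples, 0.656 to 0.835 in HFD and 8.16 to 14.3 in HFD+Mino. Hras thus exceeded Nras in 6 samples and was below it in the 3 HFD samples.

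Rras (Entrez gene 20130, chr7:45017942-45021646) encodes a RAS-related GTPase known for regulating integrin adhesion. It was at 28.3, 21.5 and 15.1 CPM in Control, 9.08, 11.3 and 9.36 CPM in HFD, and 50.6, 38.0 and 22.9 CPM in HFD+Mino. All HFD samples were below all others, and Control and HFD+Mino overlapped. Rras was called higher in HFD+Mino against HFD, with a log2 fold change of 1.90 ± 0.332. That call was lost when Control replicate 2, any 1 HFD sample, or HFD+Mino replicate 1 or 2 was left out, while the value stayed between 1.62 and 2.16 with 1 sample left out. In HFD against Control the value was -1.13 ± 0.326, which was not called, and -0.89 without Control replicate 1. The replicate block treated same-numbered samples of Control and HFD+Mino as pairs, a pairing read from these same counts. With it Rras in HFD against Control was at -1.08 ± 0.186 and was called.

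Braf (Entrez gene 109880, chr6:39603231-39725658, minus strand) encodes the RAF kinase with the strongest activity towards MEK. It was at 48.4, 49.1 and 57.4 CPM in Control, 82.1, 102 and 111 CPM in HFD, and 38.2, 47.0 and 38.5 CPM in HFD+Mino. Here the HFD samples were above all 6 others, and every HFD+Mino sample was below every Control sample, which held for 10.1% of all genes. Braf was called lower in HFD+Mino against HFD, at -1.26 ± 0.208. That call was lost without Control replicate 2, any 1 HFD sample or HFD+Mino replicate 1, with values from -1.38 to -1.16 with 1 sample left out. In HFD against Control it was at 0.93 ± 0.206, not called, and at 0.88 without Control replicate 1. With the same block it was at 0.93 ± 0.177 and was called. In all, Braf was called higher there in 6 of 15 alternatives with all samples kept. Among them were DESeq2 (adjusted p = 0.00044), edgeR's likelihood ratio test (FDR 0.0035) and an FDR under 0.05. It was called in 0 of 9 fits with 1 sample left out. Exons of Braf overlap those of Ndufb2 on the opposite strand over 146 nt, 1.05% of its exon length, and reads of the 2 genes there cannot be told apart without strand.

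Map2k1 and Map2k2, which encode MEK1 and MEK2, the kinases that phosphorylate ERK, had the smallest log2 fold changes of the 7 genes in both comparisons with HFD. Map2k1 (Entrez gene 26395, chr9:64185769-64253605) was at 326, 355 and 309 CPM in Control, 374, 383 and 349 CPM in HFD, and 247, 245 and 379.8 CPM in HFD+Mino. Map2k2 (Entrez gene 26396, chr10:81105913-81124697) was at 94.8, 79.4 and 85.9 CPM in Control, 84.4, 111 and 107 CPM in HFD, and 102, 47.7 and 89.1 CPM in HFD+Mino. Groups overlapped in every comparison of both genes. In HFD against Control the log2 fold changes were 0.16 ± 0.221 for Map2k1 and 0.22 ± 0.273 for Map2k2, and in HFD+Mino against HFD they were -0.34 ± 0.221 and -0.34 ± 0.273. These last values moved with single samples, to -0.58 for Map2k1 without HFD+Mino replicate 3, and for Map2k2 to -0.07 without HFD+Mino replicate 2 and to -0.56 without HFD+Mino replicate 1. With a trend on exon length removed, Map2k2 was at 0.04 in this comparison. None was called, and without Control replicate 1 the first pair was 0.15 for Map2k1 and 0.28 for Map2k2. The 2 transcripts share 1 run of 56 nt, longer than a read, which makes up a small part of either gene.

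Mapk3 (Entrez gene 26417, chr7:126759626-126765816) encodes ERK1, the last kinase of the cascade. It was at 137, 118 and 112 CPM in Control, 62.8, 94.2 and 78.9 CPM in HFD, and 149, 99.0 and 139.8 CPM in HFD+Mino. The HFD samples were below all 6 others. The log2 fold changes of -0.64 ± 0.234 and 0.72 ± 0.234 were not called, and the first was -0.55 without Control replicate 1.

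**Figure D2:**
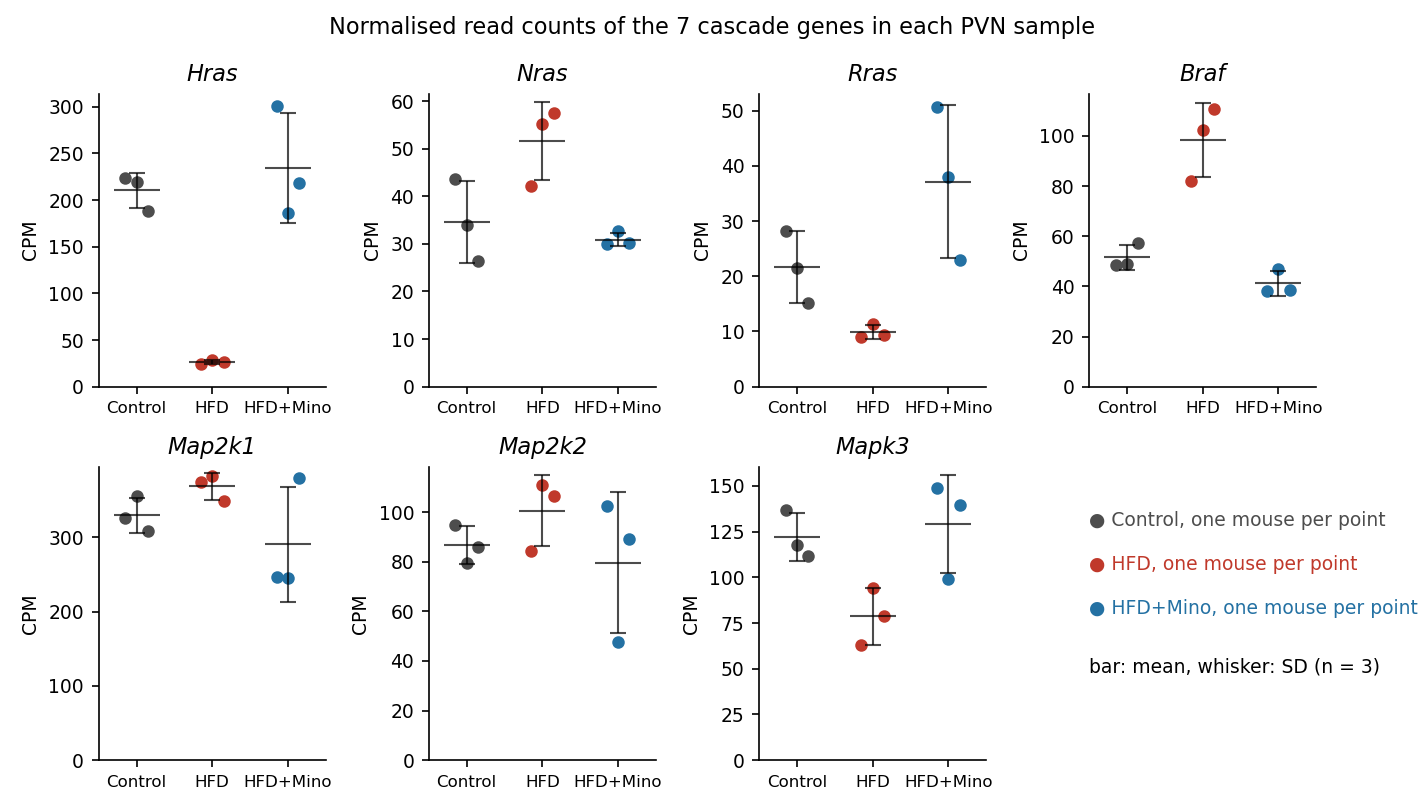
Normalised read counts (CPM, axes from 0) of the 7 cascade genes in each of the 9 samples, with 1 point per mouse, the group mean as a bar and the SD as a whisker. The HFD points of Hras, Rras and Mapk3 lie below all other points of the gene, and those of Braf lie above.

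Across the 7 genes, 1 was called in HFD against Control, Hras lower, where 1.74% of all genes tested were called with 1.42% lower and 0.317% higher. That predominance of lower calls depended on the test, since DESeq2 called 565 genes higher and 633 lower and edgeR's likelihood ratio test 413 and 553. In HFD+Mino against HFD, 3 were called, Hras and Rras higher and Braf lower, where 4.15% of all genes were called, 1.98% higher and 2.16% lower. The HFD samples lay below all 6 others for Hras, Rras and Mapk3, a pattern found in 9.62% of genes, and above all 6 others for Braf, found in 13.4% of genes. The median log2 fold change of the 7 genes was 0.16 in HFD against Control and -0.34 in HFD+Mino against HFD, beside medians over all genes of 0.0043 and 0.0089. The first was 0.15 without Control replicate 1, beside 0.031 over all genes. The genes were picked with these differences in view, so the counts describe the list and support nothing further. In HFD+Mino against Control, 0 of the 7 genes were called by the edgeR quasi-likelihood test, by DESeq2 or by edgeR's likelihood ratio test, and 1, Rras, was at an unadjusted p under 0.05. Over all genes that comparison gave 0 calls, with 21.3% of genes at an unadjusted p under 0.05, 276 calls with DESeq2 and 106 with edgeR's likelihood ratio test. Its log2 fold changes ran from -0.33 for Braf to 0.78 for Rras, and Hras was at 0.16 ± 0.220. Without Control replicate 1, Braf was at -0.37, Rras at 1.01 and Hras at 0.20.

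**Figure D3:**
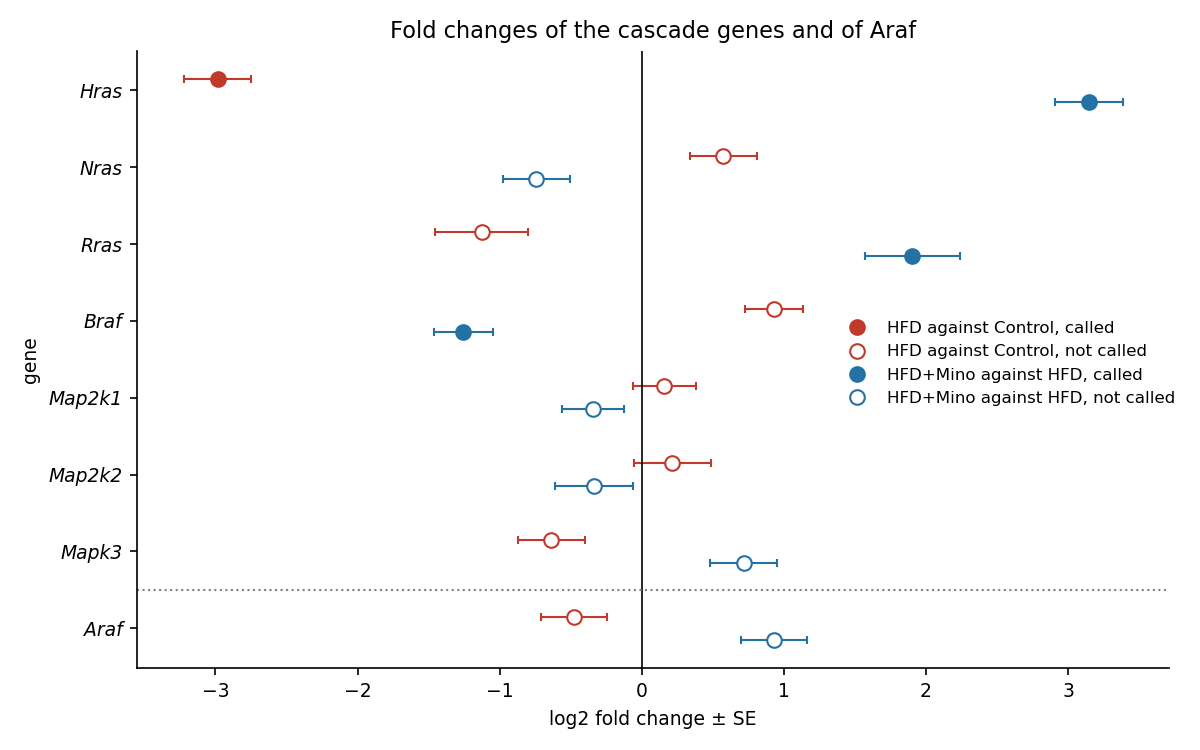
Log2 fold changes with SE of the 7 cascade genes, and below the dotted line of Araf, in HFD against Control and in HFD+Mino against HFD. Filled points were called, and Hras stands at -2.99 and 3.14.

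Fold changes across the whole table moved with exon length, and the cascade genes differ widely in length. In HFD+Mino against HFD, the median log2 fold change of all genes was 1.10 in the decile with the shortest exons, which holds Rras at 1121 nt, and 0.59 in the next decile, which holds Mapk3 at 2257 nt. It was -0.60 in the decile with the longest exons, which holds Braf at 13862 nt. In HFD against Control the same 3 medians were -0.27, -0.26 and 0.48, and without Control replicate 1 they were -0.095, -0.15 and 0.41. Rras, Mapk3 and Braf therefore lay on the same side of 0 as the median of genes of their length in both comparisons. With a smooth trend on exon length removed from each sample, Rras in HFD+Mino against HFD was at 0.78 ± 0.190, Braf at -0.61 ± 0.171 and Mapk3 at 0.28 ± 0.210, and the calls of Rras and Braf were lost. The same step in HFD against Control gave -0.86 ± 0.190 for Rras, 0.43 ± 0.170 for Braf and -0.45 ± 0.211 for Mapk3, none of them called. Hras, at 3733 nt in a decile with medians of -0.020 and -0.13, was at -2.94 and 3.21 after the same step.

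**Figure D4:**
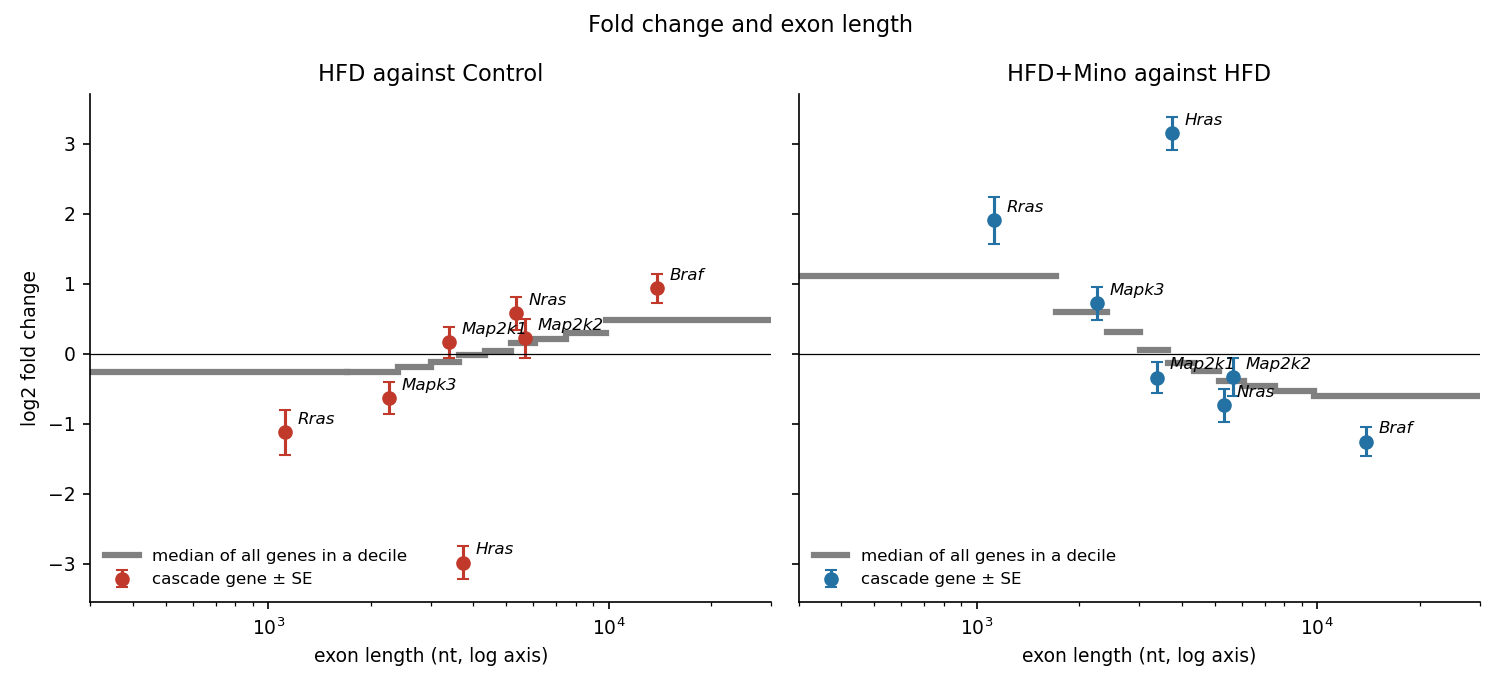
Log2 fold change with SE of each cascade gene against its exon length (log axis) in HFD against Control and HFD+Mino against HFD, with grey bars for the median of all genes in each decile of exon length. Hras at 3733 nt lies far from the grey bars, and the other 6 genes lie within 1 log2 unit of the bar of their decile.

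Stretches rich in G and C were a second property that several of these genes share. The GC-richest 100 nt of the transcript held 90% G and C in Hras and in Braf, 86% in Mapk3 and 85% in Rras, all in the highest decile of genes, and 69% in Nras, 77% in Map2k1 and 83% in Map2k2. The median log2 fold change of that decile was -0.44 in HFD against Control, -0.45 without Control replicate 1, and 0.29 in HFD+Mino against HFD. With this trend removed, a step chosen after seeing the data, Hras was at -2.32 ± 0.260 and 2.80 ± 0.265, while Braf, whose direction was opposite to the median of its decile, was at 1.61 ± 0.220 and -1.58 ± 0.220 and was then called in both comparisons. For Braf in HFD against Control the 2 corrections thus went opposite ways, to 0.43 with the trend on exon length removed and to 1.61 with this one.

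Araf, which encodes another RAF kinase, was not called in either comparison with HFD by the edgeR quasi-likelihood test. It had means of 838 ± 113 CPM (SD, n = 3) on chow, 603 ± 30.5 on the high fat diet and 1149 ± 299 with minocycline. Leaving out Control replicate 1, Araf had a mean of 859 CPM on chow. Its log2 fold changes were -0.47 ± 0.232 (edgeR FDR 0.278) and 0.93 ± 0.233 (edgeR FDR 0.0176), opposite in sign to those of Braf. Without Control replicate 1 the first was -0.51. The call in HFD+Mino against HFD depended on the setting. Araf was called higher there in 7 of 15 alternatives with all samples kept, among them DESeq2 (adjusted p = 0.00106), edgeR's likelihood ratio test (FDR 0.00374), the replicate block in Control and HFD+Mino (edgeR FDR 0.00117) and the removal of the exon length trend (1.39 ± 0.250, edgeR FDR 0.00803), and also without HFD+Mino replicate 3. The ratio of Braf to Araf counts, not scaled to exon length, was 0.0508 to 0.0765 in Control and 0.133 to 0.180 in HFD. In HFD+Mino it was 0.0321 to 0.0441, so HFD did not overlap with the other groups.

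The wider pathway was read from Araf and 9 lists, which together name 135 genes, of which 130 could be tested. In HFD against Control, 0 of 130 were called by the edgeR quasi-likelihood test, where 1.74% of all genes were called. An unadjusted p under 0.05 was found for 35, against 20.5% of all genes, and 0 were called without Control replicate 1. DESeq2 called 9, 4 higher and 5 lower, beside 1198 of all 17344 genes tested. By edgeR's likelihood ratio test 8 were called, 3 higher and 5 lower, beside 966 of 17344. The replicate block in Control and HFD+Mino gave 8, 3 higher and 5 lower, beside 1078 of 17344. In HFD+Mino against HFD, 7 of 130 were called and all 7 were lower, where 2.16% of all genes were called lower and 1.98% higher. The direction was not the same under every setting, with 9 higher and 20 lower by DESeq2, 4 and 18 by the likelihood ratio test, 12 and 22 at an FDR under 0.05, 11 and 29 with the replicate block in Control and HFD+Mino, 4 and 8 with the trend on GC content removed, and 2 and 2 with the trend on exon length removed. Over all 17344 genes tested, the first 3 of these settings gave 2182 higher and 1810 lower, 1788 and 1526, and 2524 and 2233. The last 3 gave 2232 and 2209, 839 and 642, and 340 and 128. The median log2 fold change over the 130 genes was -0.07 in the first comparison, -0.03 without Control replicate 1, and -0.12 in the second.

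The 7 called pathway genes lie at several levels of the pathway, apart from Mapk6 and Mapk9, which belong to other MAP kinase modules. Upstream of RAS were Frs2 and Gab2, docking proteins that link receptor tyrosine kinases to RAS activation, 2 of 17 adaptors and exchange factors. Frs2 fell from 54.3, 48.0 and 52.9 CPM in HFD to 16.3, 17.2 and 16.5 CPM in HFD+Mino (-1.63 ± 0.257, edgeR FDR 0.00426), and Gab2 from 19.5 ± 2.85 to 6.90 ± 1.90 CPM (-1.50 ± 0.292, edgeR FDR 0.00918). In Control, Frs2 was at 21.2, 18.7 and 34.6 CPM and Gab2 at 12.2, 13.6 and 19.1 CPM. Icmt, the methyltransferase that completes the processing of the RAS C terminus and 1 of 9 lipid-modifying and trafficking genes, fell by 2.09 on the log2 scale, from 77.9 ± 8.45 to 18.3 ± 7.70 CPM (edgeR FDR 0.00849). In Control, Icmt was at 17.2, 19.1 and 40.2 CPM. Shoc2, a scaffold that helps to activate RAF and 1 of 15 scaffolds and RAF regulators, went from 81.8 ± 3.26 CPM in HFD to 35.3 ± 7.28 CPM, below its Control levels of 49.1, 72.0 and 67.1 CPM (-1.21 ± 0.230, edgeR FDR 0.00846).

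Downstream, Etv5, an ETS transcription factor induced by ERK signaling, was the 1 called gene among 20 transcription factors and target genes, going from 48.1 ± 3.79 CPM in HFD to 16.7 ± 7.23 CPM, with Control at 26.4, 22.5 and 31.1 CPM (-1.53 ± 0.305, edgeR FDR 0.00954). In other MAP kinase modules, beside this cascade, Mapk6 and Mapk9, the genes of the atypical kinase ERK3 and of the stress kinase JNK2, were called among 16 genes. Mapk6 was at 66.6, 65.8 and 72.8 CPM in Control, 84.5 ± 10.8 CPM in HFD and 28.6 ± 9.87 CPM in HFD+Mino (-1.56 ± 0.257, edgeR FDR 0.00531). Mapk9 was at 216, 210.1 and 268 CPM in Control and 276 ± 33.0 CPM in HFD, and at 107, 114 and 136 CPM in the HFD+Mino samples (-1.22 ± 0.207, edgeR FDR 0.00606). For all 7 called pathway genes the HFD+Mino mean was below the Control mean. In HFD+Mino against Control, Mapk6 was at -1.26 ± 0.255, Gab2 at -1.11 ± 0.289, Mapk9 at -0.96 ± 0.206 and Shoc2 at -0.83 ± 0.229. The edgeR FDR was 0.132 for each, and none was called. Without Control replicate 1, Mapk6 was at -1.28 and Mapk9 at -1.01. Mapk6 and Mapk9 were called lower there with the replicate block in Control and HFD+Mino (-1.31 ± 0.193 and -0.96 ± 0.145, edgeR FDR 0.00588 and 0.00637), by DESeq2 and without HFD+Mino replicate 3, and Mapk6 also by the likelihood ratio test. With that block Shoc2 was called lower in HFD+Mino against Control as well (-0.83 ± 0.151, edgeR FDR 0.00992), and Frs2 and Icmt were called higher in HFD against Control (1.10 ± 0.209 and 1.69 ± 0.249, edgeR FDR 0.00827 and 0.00263). Frs2 and Icmt were also called higher in HFD against Control by DESeq2, by the likelihood ratio test and at an FDR under 0.05. With the exon length trend removed, Frs2, Gab2, Icmt, Shoc2 and Mapk9 lost their calls in HFD+Mino against HFD and Etv5 and Mapk6 did not. In models of 6 samples Etv5 and Mapk6 lost theirs too, as did Gab2, Shoc2 and Mapk9. Shoc2 was also lost with either GC trend alone removed, and Etv5 without Control replicate 3. Every one of the 7 calls was lost when any 1 of the 3 HFD samples, HFD+Mino replicate 1 or HFD+Mino replicate 2 was left out, and without Control replicate 2 only that of Frs2 was kept.

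The remaining 4 lists held no called gene in these 2 comparisons. They were 10 RAS GTPase-activating proteins, which switch RAS off, 18 RAS-related GTPases, 8 kinases activated by ERK and 16 tested feedback inhibitors, among them the Sprouty and dual-specificity phosphatase genes. Their median log2 fold changes in HFD+Mino against HFD were -0.41, 0.54, -0.85 and -0.10, and 2, 9, 4 and 5 of their genes were at an unadjusted p under 0.05, against 41.3% of all genes. In HFD against Control these medians were 0.20, -0.19, 0.31 and 0.06, and 0.15, -0.04, 0.14 and -0.02 without Control replicate 1, with 3, 3, 1 and 6 genes at an unadjusted p under 0.05, against 20.5% of all genes. The 20 tested transcription factors and target genes had medians of -0.29 in HFD against Control, -0.26 without Control replicate 1, and -0.47 in HFD+Mino against HFD.

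**Figure D5:**
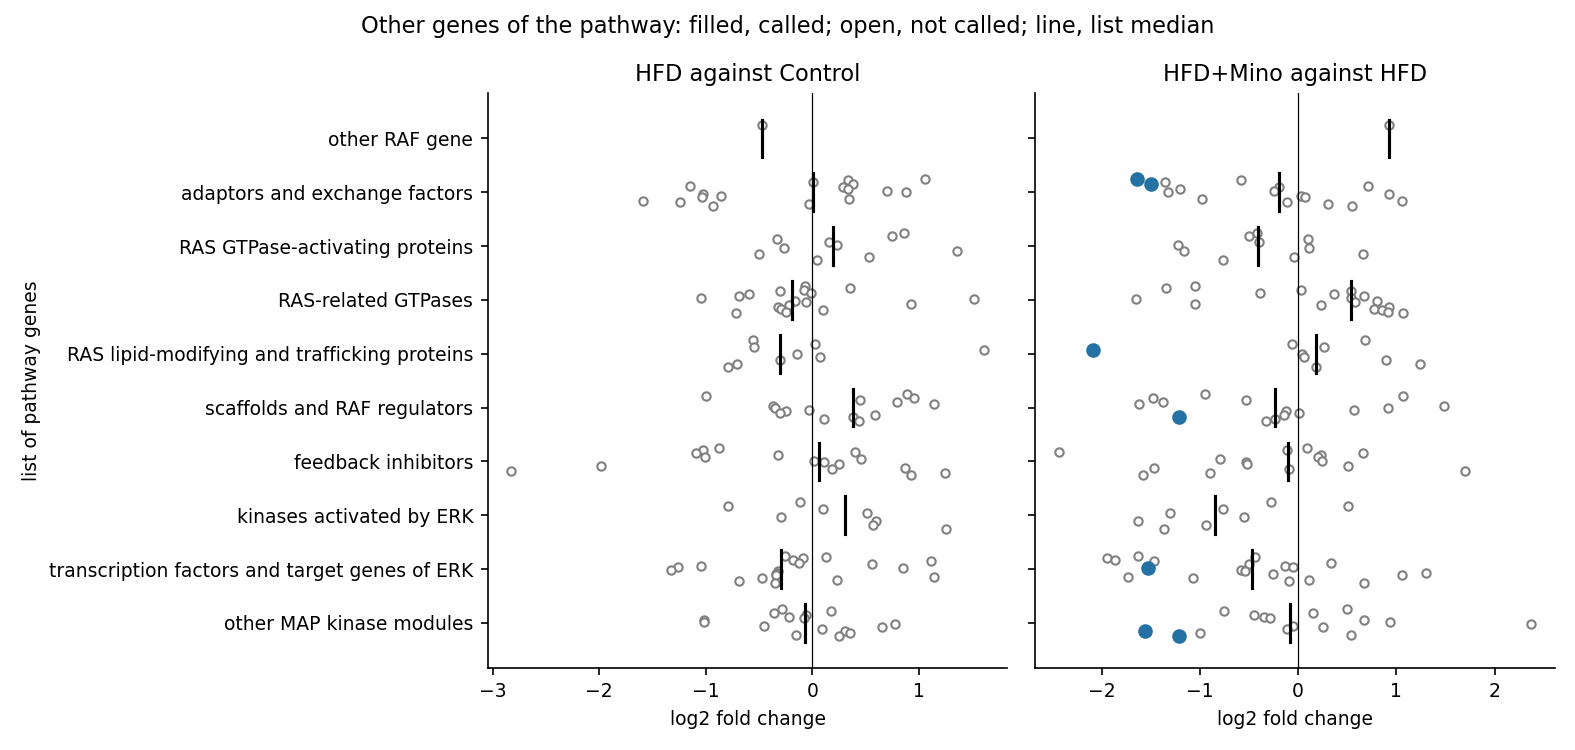
Log2 fold change of each tested gene in 9 lists of other pathway genes and of Araf, in HFD against Control and HFD+Mino against HFD. Open points were not called, filled points were called and black lines mark list medians. The 7 filled points, all below 0, are in HFD+Mino against HFD.

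Across the 9 samples, log2 CPM of Hras went with that of Mapk3 (Pearson r = 0.879) and of Rras (r = 0.867) and against that of Braf (r = -0.947) and of Nras (r = -0.803). Map2k2 had r between -0.384 and 0.493 with the other 6 genes. Over the 8 samples without Control replicate 1, Hras had r = 0.871 with Mapk3, 0.858 with Rras, -0.946 with Braf and -0.898 with Nras. These values describe 9 samples in 3 groups, and a difference between groups alone can give them. Among 10131 tested genes with a mean of at least 10 CPM, the gene most like Hras was Hdac3, a histone deacetylase gene (r = 0.996), with group means of 237, 113 and 252 CPM in Control, HFD and HFD+Mino. Rras was most like Alg3 (r = 0.992), a gene of N-glycan assembly, at 33.8, 19.6 and 49.5 CPM. Braf was most like Tmem170b (r = 0.987), at 49.7, 97.7 and 35.3 CPM. Mapk3 was most like Ctnnbip1 (r = 0.977), Map2k2 like Tom1 (r = 0.975), Map2k1 like Utp18 (r = 0.972) and Nras like Tmod2 (r = 0.962).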

How the data were processed

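The data were bulk RNA sequencing counts of PVN punches from 3 mice per group. Per the labels, libraries were made with the SMARTer Ultra Low Input RNA Kit and Nextera XT and read in pairs of 50 nt. The authors aligned reads to mm10 (GRCm38) with HISAT2, counted them per gene with featureCounts and deposited the read counts without normalization. Whether strand was used in counting is not given in the sources used here.

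The counts entered a quasi-likelihood fit of edgeR 4.0.16 (R 4.3.3) over all 9 samples with a mean for each group, after filterByExpr and TMM scaling. The 958 genes without a symbol held 0.0785% to 0.0932% of counts. Replicates differed beyond counting noise (21.0 to 316 for chi-square divided by its degrees of freedom), and reads carry no molecular identifiers, so error was taken from the spread between mice. Exon lengths came from GENCODE M21 for 21572 genes, and coordinates and promoters from RefSeq GRCm38.p6. The code was tested on simulated data.

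The 7 genes and all lists were chosen with earlier results of these data known. Genes named were the 7 members, Araf, up to 3 called genes per list and direction, the most correlated gene of each member, PVN markers, Rn45s and, after their values were seen, 3 called markers of other cell types. Some genes and sequences of the pathway are not reported here. The alternatives were DESeq2 1.42.0, other tests, scalings, filters and thresholds, models of 6 samples, trends on exon length or GC content, a replicate block and each sample left out. Same-numbered samples of Control and HFD+Mino deviated together, with correlations from 0.135 to 0.292. This pairing was read from these same counts and not from the labels, so calls gained with the block are no independent support. Same-numbered samples of HFD had correlations from -0.133 to -0.006 with Control and from -0.152 to -0.052 with HFD+Mino. Control replicate 2 and HFD replicate 1, of unlike number, had 0.167. The methods of the study describe the mice as independent. Tables and figures used pandas 2.3.3 and matplotlib 3.10.9 in Python 3.11.15.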

Additional observations from a re-analysis of the deposited data

How the results depend on the processing

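Hras kept its calls and directions in both comparisons with HFD under all alternatives. With 3 mice per group the number of calls depended strongly on the setting, and the cause was not tested. Before any change, HFD against Control gave 302 calls in the whole table, 1 among the 7 cascade genes and 0 among the other pathway genes. These 3 counts became 1198, 2 and 9 with DESeq2, 966, 2 and 8 with edgeR's likelihood ratio test, and 1001, 2 and 7 at an FDR under 0.05. In each of these settings the 2 cascade genes were Hras, lower, and Braf, higher. The 302 calls were 55 higher and 247 lower, and the 1001 were 445 and 556. The whole table and the other pathway genes gave 481 and 1 calls with no filter on low counts, 617 and 5 in models of 6 samples and 512 and 2 with the trend on GC content removed. The other pathway genes gave 1 call at a mean count of at least 50. With the trend on the GC-richest 100 nt removed, 2 cascade genes were called, Hras and Braf.

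HFD+Mino against HFD gave 719, 3 and 7 calls. The whole table and the other pathway genes gave 3992 and 29 with DESeq2, 3314 and 22 with the likelihood ratio test, 1905 and 16 with no filter, 406 and 3 in models of 6 samples and 1481 and 12 with the trend on GC content removed. All 3 counts changed at an FDR under 0.05, to 4757, 5 and 34, and with the trend on exon length removed, to 468, 1 and 4, where Rras and Braf were lost. HFD+Mino against Control gave 0 calls in the whole table, 276 with DESeq2, 106 with the likelihood ratio test and 1 with no filter.

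With the replicate number as a block over all 9 samples, HFD+Mino against HFD gave 1369 calls and 14 among the other pathway genes. The replicate numbers of HFD follow the sample titles, and the count table numbers those columns differently. Nothing in the labels ties them to the same numbers in the other groups. With the block in Control and HFD+Mino alone, the paired samples, HFD against Control gave 1078, 3 and 8 calls, the 3 cascade genes being Hras and Rras lower and Braf higher. That block gave 4441 and 40 calls in HFD+Mino against HFD and 551 in HFD+Mino against Control. With the trend on GC content removed as well, the counts were 1327, 3 and 10, then 4830 and 48, then 1053. The block changed no call of Hras.

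Leaving out 1 sample at a time gave 59 to 550 calls in HFD against Control, 1 cascade gene throughout and 0 to 3 other pathway genes. It gave 29 to 3815 calls in HFD+Mino against HFD, 1 to 3 cascade genes and 0 to 38 other pathway genes. HFD+Mino against Control gave 0 to 1120, the highest without HFD+Mino replicate 3, and 0 cascade genes throughout. HFD against Control fell to 180 and 91 calls without Control replicates 1 and 2 and to 59, 73 and 73 without HFD replicates 1 to 3, and reached 550 without HFD+Mino replicate 3, which also gave the 3815 and 38. The calls of Rras and Braf were lost without Control replicate 2 (148 calls in the whole table), without any 1 HFD sample (54, 59 and 29 for HFD replicates 1 to 3) and without HFD+Mino replicate 1 (105), and that of Rras also without HFD+Mino replicate 2 (338). Of the cascade genes, Araf and the called pathway genes, none changed sign, under any setting, in a comparison in which it was called. The cell type markers and the most correlated genes were not followed through the settings. In HFD+Mino against Control, where none was called in the main fit, several signs changed. Hras was at -0.06 without HFD+Mino replicate 1 and Icmt at 0.01 without Control replicate 3. Rras was at -0.07 with the trend on exon length removed, and Braf at 0.03 with the trend on the GC-richest 100 nt removed. Nras reached 0.05, Map2k2 0.14 and Mapk3 -0.17 under other alternatives, each opposite in sign to the main fit.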
